A study of Homo sapiens with 16 samples.

Results

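The WNT signalling genes described here are 39 named genes: 12 WNT ligands, 13 receptors and co-receptors, 7 secreted antagonists, and 7 intracellular or nuclear components. They were chosen by name, with earlier results of these data known, and matched by Ensembl identifier and symbol. All 39 were found among the 60649 genes of the count table. Poly(A) RNA was sequenced from ASC52telo, a line of adipose-derived mesenchymal stem cells (MSCs) that was immortalized with telomerase reverse transcriptase. The “young” MSCs received neither agent (MmC-/GDF11-) or recombinant growth differentiation factor 11 at 10 ng/mL (MmC-/GDF11+). Senescent MSCs were made with mitomycin C (MmC), a DNA alkylating agent, at 1.5 µg/mL for 18 h, and were then kept without (MmC+/GDF11-) or with the same GDF11 dose (MmC+/GDF11+). RNA was collected after 10 days from 4 biological replicates per group, 16 libraries in all. All libraries came from 1 immortalized line, so the spread between replicates is that between cultures of this line and not between donors.

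WNT proteins are lipid-modified secreted ligands that bind Frizzled (FZD) receptors. Together with the co-receptors LRP5 and LRP6 they stop the AXIN-containing destruction complex from degrading beta-catenin, which then works with TCF/LEF factors in the nucleus, whereas ligands such as WNT5A and WNT11 mostly act without beta-catenin, in part through the ROR1, ROR2 and RYK receptors. DKK proteins block LRP5 and LRP6, and SFRP proteins and WIF1 bind the ligands themselves. In MSCs the pathway is known for its part in the choice between bone and fat fates and in self-renewal.

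The deposited values were raw read counts per gene, with 71275337 to 144204979 counts per library (median 86044010). Levels are given as CPM (counts scaled to the library size, itself corrected by TMM), or as TPM where genes are compared with one another, and fold changes as MmC+ over MmC- on the log2 scale with their standard error (SE). The MSC markers NT5E, THY1, ENG, CD44, ITGB1 and PDGFRB summed to between 5089.87 and 6698.34 CPM per library, whereas the hematopoietic list stayed at or under 21.8 CPM and the adipocyte list at or under 1.44 CPM. Of the smooth muscle markers, MYH11 had 1 count in all 16 libraries together and DES was at or under 0.715 CPM. In bulk RNA, fewer cells expressing a gene and less RNA per cell cannot be told apart. The mitochondrial share of counts was 1.58% to 3.11% in the MmC- libraries and 3.55% to 4.73% in the MmC+ libraries, without overlap, and its part in the MmC results was not tested. In every group, the library with replicate number 1 stood apart for many WNT genes. The median absolute deviation of these genes from the group mean was 0.317, 0.201, 0.422 and 0.413 on the log2 scale in the 4 libraries numbered 1. In the other libraries it was 0.105 to 0.200. Over all tested genes it was 0.194, 0.150, 0.225 and 0.229 in the libraries numbered 1 and 0.103 to 0.181 in the others. The batch label holds 1 run identifier shared by all samples, and the study names batch effects as a limitation without saying which samples they touch. Where leaving out the libraries numbered 1 changed a call, the values without them are given.

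Of the 39 genes, 33 had enough counts to be tested. DKK1, an LRP5/6 antagonist, had the highest level per length, with a median of 288 TPM over the 16 libraries and a range of 168 to 596 TPM that lay above the range of every other listed gene. FZD7 followed with 90.2 TPM, CTNNB1 (beta-catenin) with 81.7, WNT5B with 70.4, FZD1 with 63.1, LRP5 with 55.2 and WNT5A with 54.2. The ranges of these neighbours overlapped, so their order was not separated by the spread between libraries. The lowest tested gene was FZD3, with a median of 0.0194 TPM and 1 to 23 counts per library. Among the ligands, the non-canonical WNT5B and WNT5A were followed by WNT2 at 19.2 TPM and WNT9A at 4.96 TPM, and the other 5 tested ligands had medians under 2 TPM, from WNT10B at 1.84 down to WNT4 and WNT11 at 0.312 each.

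**Figure D1:**
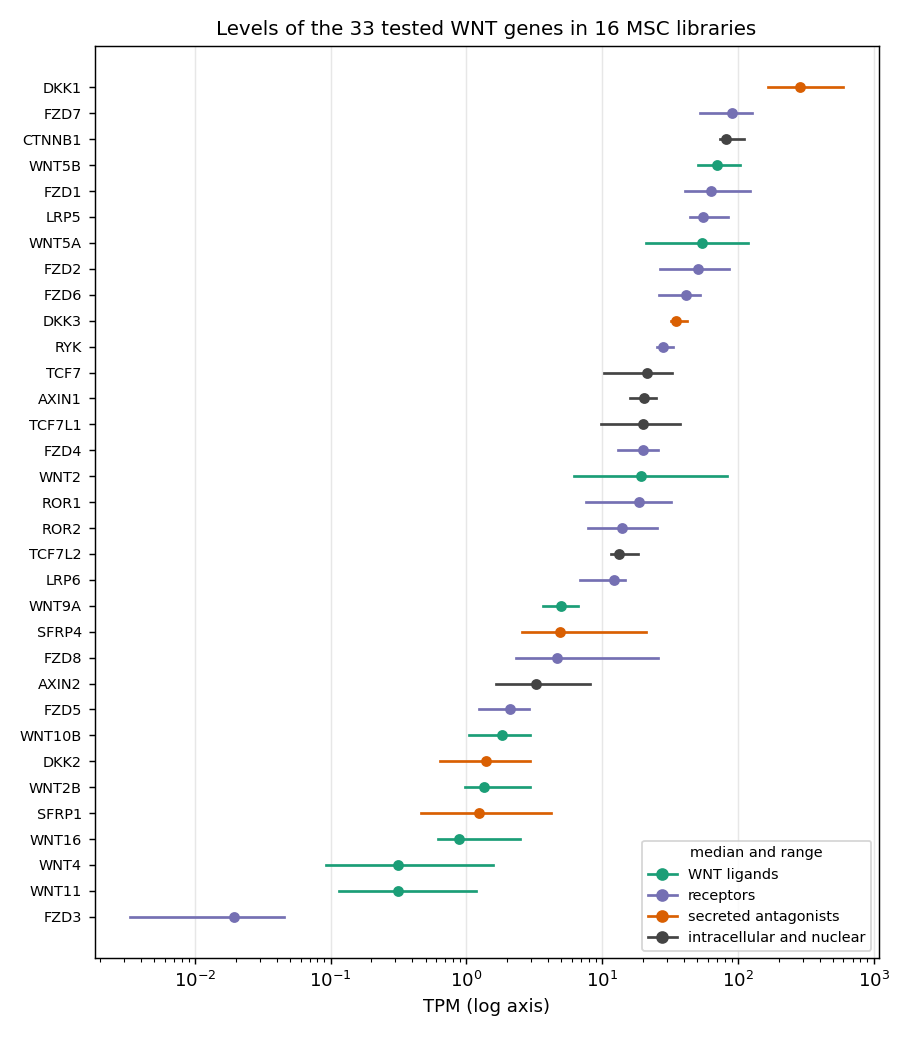
Level of each of the 33 tested WNT genes in TPM on a log axis, with the median (point) and the range (line) over all 16 libraries, coloured by role. DKK1 lies highest at a median of 288 TPM and FZD3 lowest at 0.0194 TPM.

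The 6 untested genes were close to the limit of counting in all groups. Summed over the 4 libraries of a group, WNT3 had 5 and 2 counts in young MSCs without and with GDF11 and 7 and 6 counts in senescent MSCs without and with it, but 99.7% of its exonic sequence is also present on alternate contigs of the assembly, which limits what its counts show. In the same order WNT6 had 0, 0, 3 and 2 counts, WNT7B 10, 5, 20 and 26, SFRP2 6, 2, 25 and 22, and WIF1 0, 0, 6 and 5. LEF1, a TCF/LEF factor, had 0, 4, 2 and 2 counts in replicates 1 to 4 of MmC-/GDF11-, 3, 0, 2 and 2 in MmC-/GDF11+, 2, 7, 4 and 5 in MmC+/GDF11-, and 0, 7, 11 and 6 in MmC+/GDF11+. The LEF1 ranges of young and senescent MSCs overlapped in both comparisons, and no fold change was fitted at this depth.

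Senescent and young MSCs were compared first without and then with GDF11, 4 libraries against 4. The test was edgeR's quasi-likelihood test with Benjamini-Hochberg adjustment over all 19103 tested genes. Libraries were not paired in this fit, although same-numbered libraries without GDF11 met the rule for pairing that is given below. After MmC, ligands and receptors shifted in both directions: WNT5A, WNT11, FZD8 and FZD3 rose while WNT2, FZD2 and ROR2 fell. The secreted antagonists DKK1 and DKK2 rose, and AXIN2 and TCF7L1 fell. SFRP1 was also called higher, but its groups overlapped and its call was lost with replicate number as a block. Without GDF11, 10 of the 33 tested genes were higher after MmC, 7 were lower and 16 were not called, so that 17 of 33 passed, against 45.3% of all tested genes (22.9% higher and 22.4% lower). With GDF11, 11 were higher, 6 lower and 16 not called, against 46.7% of all tested genes (23.4% higher and 23.3% lower). The share of called WNT genes was therefore close to that of the transcriptome as a whole. The median log2 fold change of the WNT genes was 0.15 without and 0.18 with GDF11, against -0.01 for all genes in both comparisons, and the median absolute change was 0.58 and 0.64, against 0.41 and 0.42.

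Of the calls, 9 genes were higher in both comparisons and 6 were lower in both, and no gene changed direction. Of all tested genes, 40.2% were called in the same direction in both (20.3% higher and 19.9% lower). FZD6 and TCF7 passed only without GDF11, and WNT9A and FZD5 only with it, but the interaction of MmC and GDF11 passed for none of the 33 genes. The 4 MmC+ libraries did not overlap the 4 MmC- libraries in 14 WNT genes without GDF11 (7 higher and 7 lower, against 37.3% of all tested genes, 19.1% higher and 18.2% lower) and in 14 with it (8 higher and 6 lower, against 41.5%, 20.2% higher and 21.2% lower). The proliferation markers MKI67, TOP2A, CCNB1, PLK1 and CDK1 moved with MmC as well: all 5 were lower in both comparisons, and their summed level was 349 to 757 CPM in MmC-/GDF11-, 525 to 689 in MmC-/GDF11+, 68.1 to 157 in MmC+/GDF11- and 64.1 to 177 in MmC+/GDF11+. Of the epithelial list, KRT14 was the 1 of 2 tested markers that was lower in both comparisons, and the list summed to 48.7 to 82.3, 49.9 to 77.0, 15.1 to 17.8 and 12.5 to 20.7 CPM in the same order of groups. The endothelial list, with PECAM1 among the 2 of 4 markers higher and 1 lower in each comparison, summed to 47.5 to 75.8, 50.3 to 82.3, 58.7 to 111 and 54.2 to 109 CPM. The adipocyte list summed to between 0.0311 and 0.130 CPM in MmC-/GDF11- and between 0.257 and 1.44 CPM in MmC+/GDF11-. With GDF11 it summed to between 0.0134 and 0.141 CPM in young and between 0.315 and 1.30 CPM in senescent MSCs. In senescent MSCs the upper end was replicate 1 alone, and the other libraries were at or under 0.345 CPM without and 0.523 CPM with GDF11. Of the 3 adipocyte markers, LEP was called in both comparisons and PLIN1 with GDF11, while ADIPOQ had at most 4 counts in any library. Of the 3 osteoblast markers, IBSP was called higher in both (4.61 and 2.98 on the log2 scale) at no more than 0.242 CPM, and SP7 and BGLAP had too few counts for a test. Of the 6 MSC markers, 2 were higher and 1 lower without GDF11, and 3 higher and 1 lower with it. Of 3 tested hematopoietic markers, 1 was higher without and 2 with GDF11, and none was lower. Of all tested genes, 22.9% were higher and 22.4% lower without GDF11, and 23.4% and 23.3% with it. The part of these shifts in the WNT results was not tested.

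**Figure D2:**
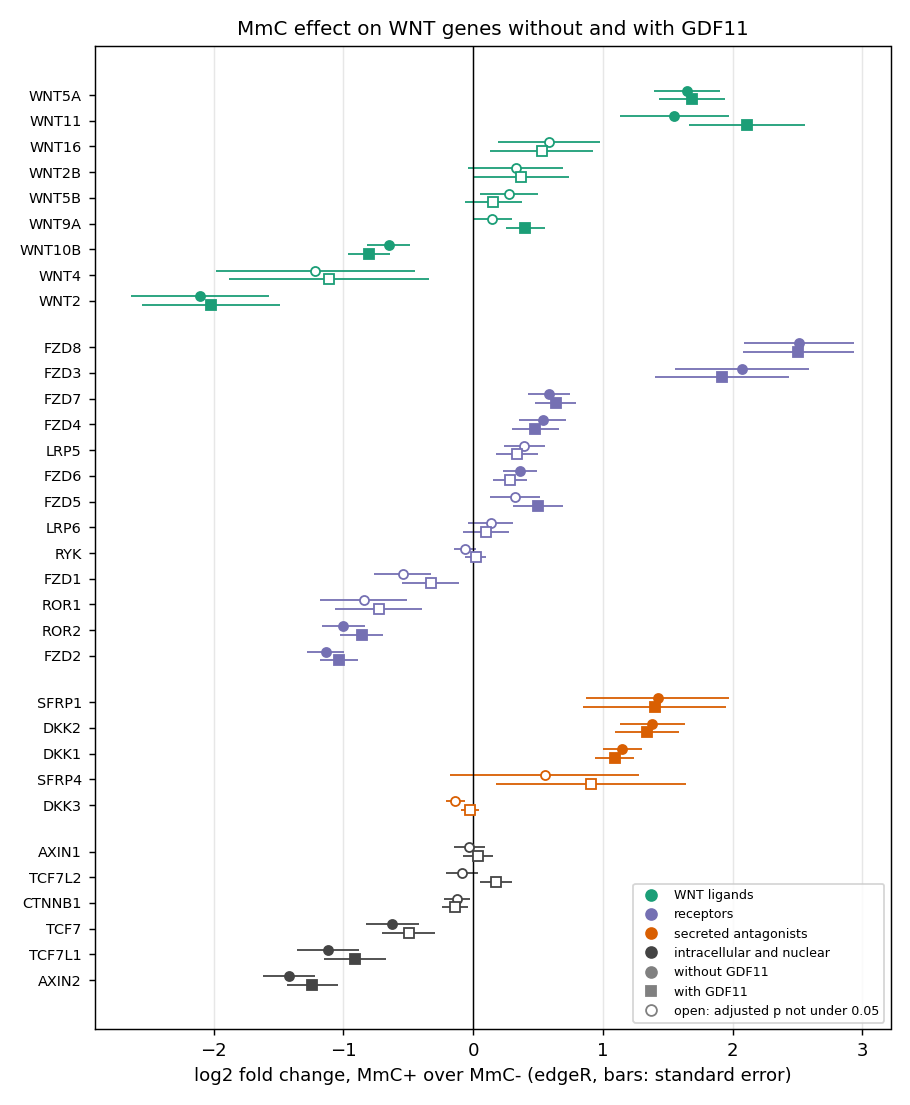
Log2 fold change after MmC for the 33 tested WNT genes without GDF11 (circles) and with GDF11 (squares), from edgeR, with bars of 1 standard error; filled symbols have an adjusted p under 0.05 and colours give the role. FZD8 lies highest at 2.51 in both comparisons and WNT2 lowest at -2.11 and -2.02.

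Promoter sequence is shown for some of the called genes with at least a 2-fold change after MmC, in both directions. They were picked by the availability of sequence and not by the size of their change. Of the 12 genes called in both comparisons with at least a 2-fold change in either, 6 had an entry in the RefSeq promoter table (GRCh38.p14). Of these, FZD8 and DKK1, which were higher after MmC, and ROR2 and TCF7L1, which were lower, had a window free of protein-coding exons. The 250 bases before the annotated start are given 5′ to 3′ on the strand of the gene, and capitals mark matches to any of the following motifs on either strand. The motifs searched for TCF/LEF factors were CTTTGTT and, as a second form of the same motif, CTTTGAT. The TATA box was searched as TATAAA, the CCAAT box by the letters of its name, and the GC box as GGGCGG.
FZD8, chr10:35642297-35642546, minus strand: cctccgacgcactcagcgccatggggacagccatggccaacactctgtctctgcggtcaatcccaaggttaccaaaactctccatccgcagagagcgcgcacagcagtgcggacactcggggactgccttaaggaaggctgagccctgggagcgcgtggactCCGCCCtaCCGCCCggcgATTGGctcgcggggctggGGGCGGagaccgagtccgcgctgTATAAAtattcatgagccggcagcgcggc
DKK1, chr10:52314031-52314280, plus strand: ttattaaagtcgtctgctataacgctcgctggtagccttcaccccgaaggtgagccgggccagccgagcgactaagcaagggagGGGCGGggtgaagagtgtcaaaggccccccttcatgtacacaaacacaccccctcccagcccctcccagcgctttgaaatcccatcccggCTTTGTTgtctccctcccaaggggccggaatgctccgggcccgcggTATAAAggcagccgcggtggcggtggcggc
ROR2, chr9:91950229-91950478, minus strand: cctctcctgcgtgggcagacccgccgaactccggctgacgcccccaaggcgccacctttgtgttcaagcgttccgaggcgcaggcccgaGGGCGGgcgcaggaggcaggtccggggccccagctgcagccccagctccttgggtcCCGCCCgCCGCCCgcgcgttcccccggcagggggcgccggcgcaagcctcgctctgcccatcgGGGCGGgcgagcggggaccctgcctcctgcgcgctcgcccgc
TCF7L1, chr2:85133142-85133391, plus strand: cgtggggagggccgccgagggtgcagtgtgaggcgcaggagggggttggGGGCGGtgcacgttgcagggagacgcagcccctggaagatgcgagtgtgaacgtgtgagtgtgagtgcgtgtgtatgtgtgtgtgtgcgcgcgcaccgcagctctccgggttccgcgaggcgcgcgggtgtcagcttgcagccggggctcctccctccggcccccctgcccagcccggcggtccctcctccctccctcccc
FZD8 and DKK1 each hold a TATA box, which begins 29 and 30 bases before the start and was found in 11.1% of the 27305 promoters searched and in 3 of the 27 listed genes with an entry. DKK1 alone among the 27 holds CTTTGTT, from 76 to 70 bases before the start, against 4.54% of all promoters, and none of the 27 holds CTTTGAT, against 2.28%. GC boxes are in all 4 printed windows and in 23 of the 27 (85.2%), against 42.3% of all promoters. A CCAAT box is in 9 of the 27 (33.3%), FZD8 among them, against 9021 of the 27305 promoters. The windows of the listed genes had a median GC content of 70.8%, against 58.0%. A match describes letters in this window and not a site of binding.

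WNT5A, a ligand that signals mostly without beta-catenin (chr3:55465715-55490539, minus strand), was among the most abundant ligands and rose after MmC. In replicates 1 to 4 it was at 87.8, 43.2, 51.1 and 52.8 CPM in MmC-/GDF11- and at 82.9, 48.5, 45.7 and 49.9 CPM in MmC-/GDF11+. In senescent MSCs it was at 129, 213, 206 and 188 CPM without GDF11 and at 124, 194, 225 and 186 CPM with it. Every MmC+ library was above every MmC- library, and replicate 1 was the highest of the young and the lowest of the senescent libraries. By edgeR, WNT5A rose by 1.65 on the log2 scale (SE 0.26, adjusted p = 0.000115) without and by 1.69 (SE 0.26, adjusted p = 9.51e-05) with GDF11. Without the libraries numbered 1 it was 2.05 and 2.08.

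WNT11, another ligand of the beta-catenin-independent branch, was counted with few reads (6 to 62 per library) and rose as well. Its levels were 0.195, 0.207, 0.0786 and 0.106 CPM in MmC-/GDF11- and 0.125, 0.107, 0.0767 and 0.0670 CPM in MmC-/GDF11+, against 0.213, 0.489, 0.324 and 0.714 CPM in MmC+/GDF11- and 0.191, 0.549, 0.355 and 0.523 CPM in MmC+/GDF11+. The groups did not overlap, although without GDF11 the lowest senescent library, replicate 1, was only just above the highest young one. The summed counts were 154 after MmC against 52 without GDF11, a ratio of 2.90 (95% interval 2.11 to 4.05, counting error only), and 169 against 29 with GDF11, a ratio of 4.45 (2.99 to 6.84). In edgeR the log2 fold change was 1.55 (SE 0.42, adjusted p = 0.00665) and 2.11 (SE 0.45, adjusted p = 0.00123). Exons of an antisense gene cover 8.60% of its exonic sequence.

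WNT2, a ligand of the beta-catenin branch (chr7:117275451-117323152, minus strand), fell. It was at 93.7, 34.4, 32.4 and 22.8 CPM in MmC-/GDF11- and at 79.5, 36.3, 36.5 and 23.5 CPM in MmC-/GDF11+. After MmC it was at 19.6, 7.83, 7.44 and 7.54 CPM without and at 21.2, 7.69, 7.27 and 7.40 CPM with GDF11. Replicate 1 was far above the others in all 4 groups, and yet no senescent library reached the young range of the same comparison. The log2 fold change was -2.11 (SE 0.53, adjusted p = 0.00477) and -2.02 (SE 0.53, adjusted p = 0.00595), and within replicate number 1 alone the log2 ratio was -2.26 and -1.91, close to the group value.

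Of the other tested ligands, WNT10B fell by 0.65 (adjusted p = 0.00411, edgeR) and by 0.80 (adjusted p = 0.000890) on the log2 scale, without overlap between groups. WNT9A rose with GDF11 by 0.40 (adjusted p = 0.0371), and was at 0.15 (adjusted p = 0.447) without it. WNT2B, WNT4, WNT5B and WNT16 were not called in either comparison, with log2 fold changes of 0.33, -1.22, 0.27 and 0.58 without GDF11. Of these, WNT4 was highest in replicate 1 in every group (1.87, 1.67, 0.750 and 0.779 CPM, against at most 0.523 CPM in any other library). WNT4 was lower after MmC once the libraries numbered 1 were left out, by 1.13 (adjusted p = 0.0255) without and by 1.05 (adjusted p = 0.0324) with GDF11 on the log2 scale. Exons of ST7L, on the opposite strand, cover 21.5% of WNT2B.

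Among the receptors, FZD8 had the largest change of all tested WNT genes. It was at 3.38, 2.91, 2.91 and 4.08 CPM in MmC-/GDF11- and at 3.43, 3.14, 2.63 and 3.25 CPM in MmC-/GDF11+. In senescent MSCs it was at 5.82, 28.7, 20.2 and 21.1 CPM without and at 5.95, 22.1, 22.2 and 20.5 CPM with GDF11. All senescent libraries lay above all young ones, and replicate 1 rose far less than the other three. The log2 fold change was 2.51 (SE 0.43) in both comparisons, with adjusted p = 0.000254 and 0.000259 by edgeR, and 2.82 and 2.85 without the libraries numbered 1. Within number 1 it was 0.79 in both. FZD8 is a gene with a single exon next to the promoter printed above (chr10:35638247-35642296, minus strand), and 7.85% of it is covered by exons of an antisense gene.

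FZD3, a Frizzled receptor known mainly for planar cell polarity, also rose, at levels that are close to the limit of counting. It was at 0.0390, 0.0207, 0.0262 and 0.0289 CPM in MmC-/GDF11-, and at 0.0834, 0.0134, 0.0128 and 0.0223 CPM in MmC-/GDF11+. The senescent libraries were at 0.172, 0.128, 0.112 and 0.0806 CPM without and at 0.178, 0.0610, 0.157 and 0.107 CPM with GDF11. The groups were separate without GDF11 but overlapped with it, where young replicate 1 exceeded senescent replicate 2. Counts summed to 45 against 10 without GDF11, a ratio of 4.41 (95% interval 2.19 to 9.81), and to 52 against 10 with it, a ratio of 3.97 (1.99 to 8.76). The log2 fold change was 2.07 (SE 0.52, adjusted p = 0.00410, edgeR) and 1.92 (SE 0.52, adjusted p = 0.00629).

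FZD2 and the receptor tyrosine kinase-like ROR2, both known as receptors for WNT5A, fell. FZD2 (chr17:44557484-44561262, plus strand) was at 74.2, 70.5, 67.0 and 79.4 CPM in MmC-/GDF11- and at 64.7, 64.9, 65.5 and 71.4 CPM in MmC-/GDF11+, against 41.4, 36.02, 29.0 and 25.8 CPM in MmC+/GDF11- and 41.7, 32.7, 28.4 and 27.3 CPM in MmC+/GDF11+. The groups were far apart, and the log2 fold change was -1.14 (SE 0.14, adjusted p = 1.53e-05) and -1.04 (SE 0.14, adjusted p = 3.52e-05). ROR2 (chr9:91563091-91950228, minus strand) was at 38.7, 28.6, 26.5 and 26.01 CPM in MmC-/GDF11- and at 31.6, 29.6, 26.4 and 24.1 CPM in MmC-/GDF11+. After MmC it was at 18.9, 12.7, 13.4 and 14.8 CPM without and at 18.1, 13.2, 12.3 and 18.0 CPM with GDF11. Here too the groups did not overlap, with a log2 fold change of -1.002 (SE 0.17, adjusted p = 0.000175) and -0.86 (SE 0.17, adjusted p = 0.000610). WNT5A thus rose while FZD2 and ROR2 fell in the same libraries.

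Among the remaining receptors, FZD7 rose by 0.58 (adjusted p = 0.00718, edgeR) and 0.64 (adjusted p = 0.00407) on the log2 scale, without overlap. FZD4 rose by 0.54 (adjusted p = 0.0250) and 0.48 (adjusted p = 0.0415), but its groups overlapped, since replicate 1 went from 42.3 to 36.6 CPM without GDF11 while replicates 2 to 4 went from between 24.6 and 29.0 to between 44.6 and 51.8 CPM. Exons of the neighbouring gene PRSS23 on the opposite strand cover 18.9% of FZD4. FZD6 passed without GDF11 at 0.36 (adjusted p = 0.0309) and was at 0.28 (adjusted p = 0.0811) with it, and FZD5 passed with GDF11 at 0.50 (adjusted p = 0.0434) and was at 0.32 (adjusted p = 0.186) without it. The FZD5 call was lost without the libraries numbered 1 (0.42, adjusted p = 0.102). In the main fit, the co-receptors LRP5 and LRP6 and the receptors FZD1, ROR1 and RYK were not called in either comparison. LRP5 was at 0.40 (adjusted p = 0.0524) and 0.34 (adjusted p = 0.0918), and without GDF11 it passed under 6 of 9 alternatives, among them RLE scaling, DESeq2 and the fit without the libraries numbered 1 (0.34, adjusted p = 0.00937). With replicate number as a block, LRP5 (adjusted p = 0.00111 and 0.00398), FZD1 (adjusted p = 0.000514 and 0.00853) and ROR1 (adjusted p = 4.9e-05 and 0.000202) passed in both comparisons. ROR1 was at -0.85 (adjusted p = 0.0514) and -0.73 (adjusted p = 0.0870), and it passed at -1.09 and -0.87 without the libraries numbered 1, in which it was the highest of every group. FZD1 passed at -0.48 and -0.42 under the same condition. With all libraries and no block, limma-voom called ROR1 lower in both comparisons, and DESeq2 called ROR1 and FZD1 lower without GDF11.

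Of 5 tested secreted antagonists, 3 were higher and none lower in both comparisons, against 20.3% of all tested genes higher and 19.9% lower in both. DKK1 (chr10:52314281-52318042, plus strand) was at 96.3, 122, 129 and 105 CPM in MmC-/GDF11- and at 125, 125, 117 and 114 CPM in MmC-/GDF11+. It was at 216, 225, 241 and 320 CPM in MmC+/GDF11- and at 224, 228, 234 and 341 CPM in MmC+/GDF11+. No senescent library came near the young range, and replicate 4 was the highest of the senescent libraries. By edgeR, DKK1 rose by 1.15 (SE 0.15, adjusted p = 2.01e-05) and by 1.09 (SE 0.15, adjusted p = 3.12e-05) on the log2 scale. Exons of PRKG1-AS1, on the opposite strand, cover 10.2% of DKK1.

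DKK2, which like DKK1 binds LRP5 and LRP6, was far lower in level and rose to a like degree. Its levels were 0.754, 1.14, 0.813 and 1.14 CPM in MmC-/GDF11- and 0.709, 0.885, 1.29 and 1.08 CPM in MmC-/GDF11+, and 3.55, 2.02, 2.56 and 1.93 CPM in MmC+/GDF11- and 3.45, 2.38, 2.30 and 1.95 CPM in MmC+/GDF11+. The groups were separate, with replicate 1 the lowest of the young and the highest of the senescent libraries. DKK2 had a log2 fold change of 1.38 (SE 0.25, adjusted p = 0.000320) and 1.34 (SE 0.25, adjusted p = 0.000421), and 1.07 and 1.03 without the libraries numbered 1. DKK3, a divergent DKK family member, was not called at -0.14 and -0.02. Exons of USP47, on the opposite strand, cover 47.5% of DKK3.

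SFRP1, a decoy that binds WNT ligands, rose in 3 of 4 replicates. It was at 1.55, 1.01, 0.957 and 1.43 CPM in MmC-/GDF11- and at 1.07, 1.13, 1.05 and 1.60 CPM in MmC-/GDF11+. In senescent MSCs it was at 0.608, 4.33, 3.64 and 4.70 CPM without and at 0.629, 3.33, 3.71 and 5.11 CPM with GDF11. Replicate 1 was the lowest of all libraries after MmC, so that the groups overlapped, and the other 3 senescent libraries were above every young one. For SFRP1 the log2 fold change was 1.42 (SE 0.55, adjusted p = 0.0465) and 1.40 (SE 0.55, adjusted p = 0.0488), just past the threshold. It was 1.89 and 1.68 without the libraries numbered 1, while with replicate number as a block the call was lost (adjusted p = 0.0835 and 0.0672). SFRP4, a related decoy, was at 14.5, 10.5, 18.9 and 21.2 CPM in the 4 libraries numbered 1 and between 2.22 and 6.04 CPM in the other 12, and was not called (log2 fold change 0.55 and 0.91). Without the libraries numbered 1 it was higher after MmC, by 0.80 (adjusted p = 0.000901) and by 0.77 (adjusted p = 0.00115).

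Of 6 tested intracellular and nuclear genes, none was higher after MmC in either comparison (22.9% and 23.4% of all tested genes were), and 3 were lower without and 2 with GDF11 (22.4% and 23.3%). AXIN2, a scaffold of the destruction complex and a widely used target gene of beta-catenin (chr17:65528563-65561648, minus strand), fell. It was at 11.0, 6.82, 6.49 and 5.67 CPM in MmC-/GDF11- and at 7.62, 6.83, 6.05 and 5.42 CPM in MmC-/GDF11+, against 3.32, 2.62, 2.34 and 2.88 CPM in MmC+/GDF11- and 3.35, 2.39, 2.33 and 2.91 CPM in MmC+/GDF11+. The groups were clearly separate in both comparisons. The log2 fold change was -1.42 (SE 0.20, adjusted p = 3.76e-05, edgeR) and -1.24 (SE 0.20, adjusted p = 0.000121). A readthrough gene on the same strand shares 25.3% of the AXIN2 exonic sequence, and how reads shared by overlapping genes were counted is not given in the sources used here.

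TCF7L1, a TCF/LEF factor that often acts as a repressor (chr2:85133392-85310387, plus strand), fell as well. It was at 43.1, 31.5, 28.7 and 27.2 CPM in MmC-/GDF11- and at 35.5, 26.4, 27.1 and 25.7 CPM in MmC-/GDF11+. After MmC it was at 22.6, 12.8, 11.7 and 13.1 CPM without and at 22.9, 12.8, 11.6 and 13.7 CPM with GDF11. Replicate 1 was the highest of each group, and the groups did not overlap. TCF7L1 had a log2 fold change of -1.12 (SE 0.24, adjusted p = 0.00140) and -0.91 (SE 0.24, adjusted p = 0.00535).

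TCF7, which encodes TCF1, was at 57.3, 74.6, 66.9 and 71.9 CPM in MmC-/GDF11- and at 46.9, 64.7, 61.2 and 80.7 CPM in MmC-/GDF11+. In senescent MSCs it was at 30.02, 48.6, 42.7 and 54.4 CPM without and at 29.5, 47.8, 46.0 and 56.4 CPM with GDF11. The groups were separate without and overlapped with GDF11, and replicate 1 was the lowest library of every group. TCF7 passed without GDF11 at -0.62 (SE 0.20, adjusted p = 0.0209, edgeR) and not with it at -0.50 (SE 0.20, adjusted p = 0.0566). With GDF11 it passed without the libraries numbered 1 (-0.46, adjusted p = 0.00553) and with replicate number as a block (-0.51, adjusted p = 0.000101).

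CTNNB1, which encodes beta-catenin itself, was at 242, 273, 293 and 320 CPM in MmC-/GDF11- and at 240, 294, 256.1 and 318 CPM in MmC-/GDF11+, against 252, 273, 260 and 250 CPM in MmC+/GDF11- and 247, 251, 264 and 246 CPM in MmC+/GDF11+. The senescent libraries lay inside the young range in both comparisons. Its log2 fold change was -0.12 (SE 0.10, adjusted p = 0.335) and -0.14 (SE 0.10, adjusted p = 0.282). AXIN1 and TCF7L2 were not called either, with log2 fold changes between -0.09 and 0.18.

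**Figure D3:**
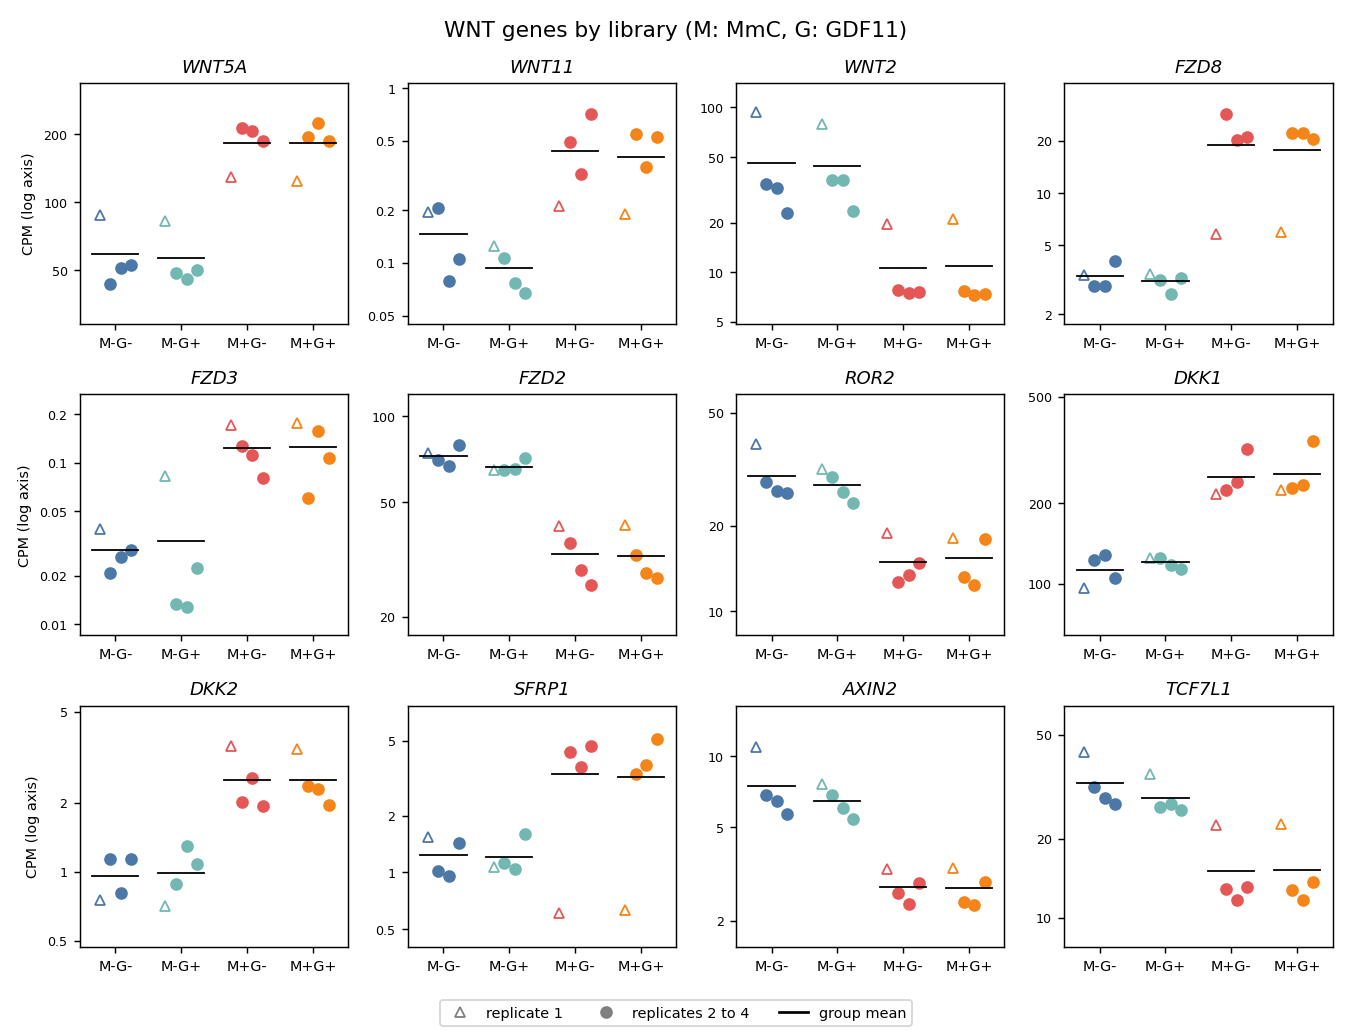
CPM on a log axis in each of the 16 libraries for the 12 WNT genes called in both MmC comparisons with at least a 2-fold change in either; triangles are replicate 1, circles replicates 2 to 4 and lines group means (M, MmC; G, GDF11). In the MmC+ groups, replicate 1 of FZD8 (5.82 and 5.95 CPM) and of SFRP1 (0.608 and 0.629 CPM) lies below the other replicates.

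Replicate number 1 was the highest library in all 4 groups for 15 of the 33 tested genes and the lowest in all 4 for AXIN1 and TCF7. The share of all tested genes with such a position was not counted. The ratio of MmC+ over MmC- was also taken within replicate numbers. For WNT5A, WNT11, WNT2, FZD8, FZD3, FZD2, ROR2, DKK1, DKK2, AXIN2 and TCF7L1, its log2 value had 1 sign in all 4 numbers of both comparisons. Where groups do not overlap, any pairing of libraries gives 1 sign. The outcome was thus fixed in advance for all of these genes except FZD3 with GDF11, where the groups overlapped. SFRP1 was the exception among the 12 genes called in both comparisons with at least a 2-fold change in either. It was at -1.35 and -0.77 within number 1 and between 1.56 and 2.10 within numbers 2 to 4. With replicate number as a block in the edgeR fit, WNT2B, WNT4, FZD1, LRP5, ROR1 and SFRP4 also passed in both comparisons and SFRP1 did not, so that 12 genes were higher and 10 lower after MmC without GDF11. The calls over all tested genes rose as well under the block, from 8655 to 11066 of 19103. The libraries numbered 1 also differed in marker levels. The endothelial list was highest in number 1 of each group (75.8, 82.3, 111 and 109 CPM). In senescent MSCs the proliferation list was at 68.1 and 64.1 CPM in number 1, against 152 to 177 CPM in the other libraries. The adipocyte list was there at 1.44 and 1.30 CPM in number 1, against 0.257 to 0.523 CPM in the others. Whether these differences bear on the WNT genes was not tested.

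**Figure D4:**
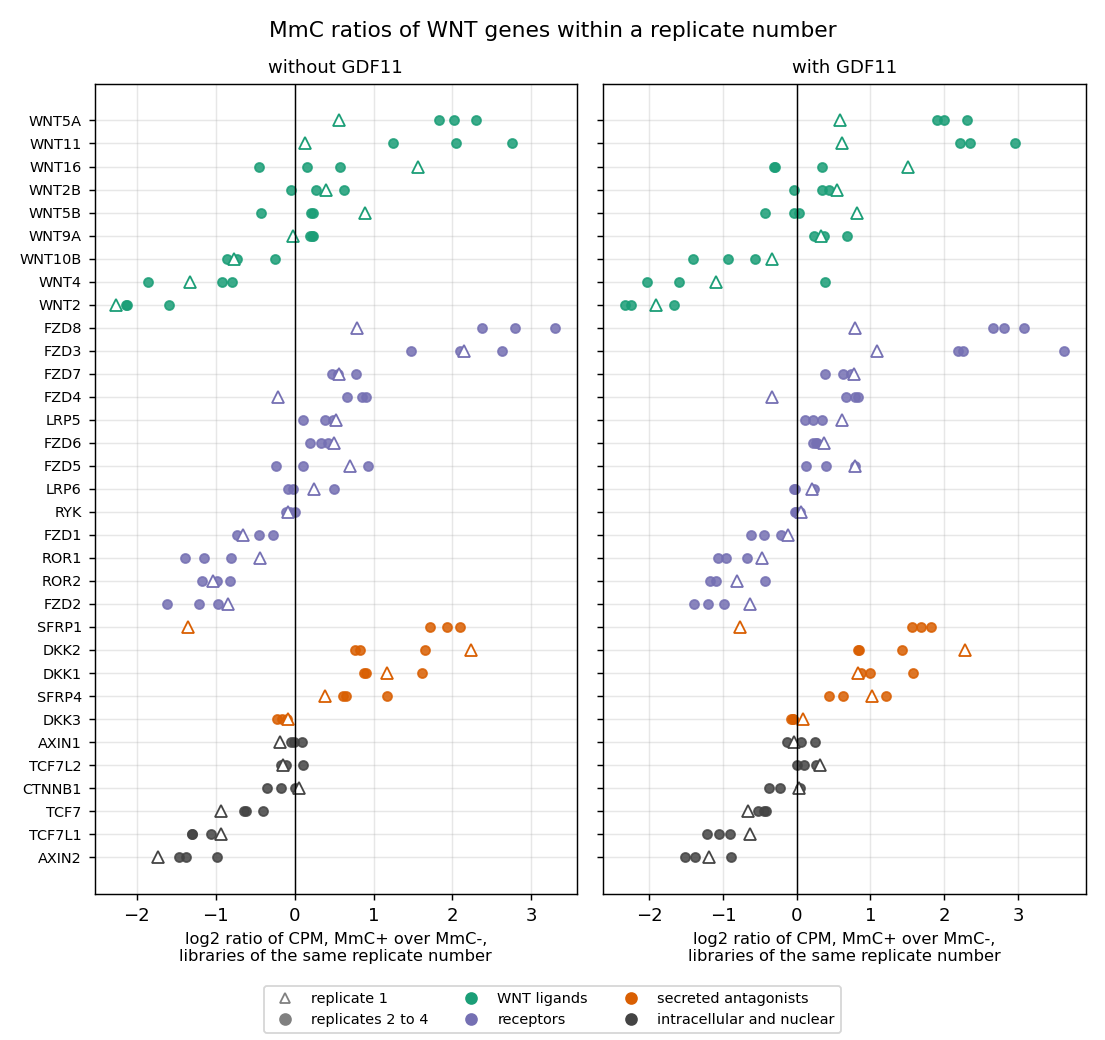
Log2 ratio of CPM in the MmC+ over the MmC- library of the same replicate number, without GDF11 (left) and with GDF11 (right), for the 33 tested WNT genes; triangles are number 1 and circles numbers 2 to 4, coloured by role. For SFRP1 the triangle lies at -1.35 and -0.77, opposite in sign to the circles.

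GDF11 was compared with its absence in young and in senescent MSCs, and these comparisons share their libraries with those of MmC. By edgeR, none of the 33 WNT genes was called in either (background 0% of 19103 genes in each), and the interaction called none either (0%). At an unadjusted p under 0.05, 226 genes of the transcriptome (1.18%) passed in young and 96 (0.503%) in senescent MSCs. For the interaction 172 (0.9%) passed, and none of all these was a WNT gene. These shares lie below the share of 0.05 that the threshold would pass with no effect at all. The unpaired test was thus strict here, and the lack of calls does not show that GDF11 had no effect. With replicate number as a block, 551, 145 and 296 genes passed in the same order, and none was called after adjustment. DESeq2 called 1 gene of the transcriptome in young MSCs and limma-voom none. The log2 fold changes of the WNT genes lay between -0.65 and 0.17 in young and between -0.10 and 0.13 in senescent MSCs. The lowest value was that of WNT11 in young MSCs (SE 0.48, unadjusted p = 0.198 by edgeR), whose levels overlapped between the groups.

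Further genes of the pathway were counted in lists by their role. These lists were chosen with earlier results of these data known, so their shares describe the lists and test nothing. Of the genes that modify, carry or inactivate WNT ligands, all 5 were called in both comparisons, against 40.2% of all tested genes called in the same direction in both. PORCN, the acyltransferase that attaches the lipid, was at 10.7 to 11.2 CPM in MmC-/GDF11- and 20.5 to 30.7 CPM in MmC+/GDF11-, with a log2 fold change of 1.23 (SE 0.13, adjusted p = 2.04e-06, edgeR) and 1.12 (SE 0.13, adjusted p = 5.30e-06) with GDF11. WLS, which carries WNT ligands to the cell surface, TRABD2A, and NOTUM, which removes the lipid, rose as well, whereas TRABD2B fell by 0.93 and 0.78. NOTUM had 67 counts against 2 without GDF11, a ratio of 32.8 (95% interval 8.74 to 277, counting error only). With GDF11 it had 78 against 5, a ratio of 11.9 (4.89 to 37.7). Replicates 1 to 4 of MmC+/GDF11- had 1, 27, 21 and 18 counts, so that replicate 1 lay within the young range and the groups overlapped. Those of MmC+/GDF11+ had 5, 20, 38 and 15 counts, and the groups were separate. The log2 fold change was 4.76 (SE 0.96, adjusted p = 0.000856, edgeR) and 3.38 (SE 0.83, adjusted p = 0.00361).

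In the R-spondin axis, which amplifies WNT signalling by keeping FZD receptors on the cell surface, 3 of 6 tested genes were higher and 3 lower in both comparisons, against 20.3% and 19.9% of all tested genes, and the list's median log2 fold change was -0.26 and -0.19. RSPO3 was at 0.0964 to 0.468 CPM in MmC-/GDF11- and 0.314 to 2.75 CPM in MmC+/GDF11-, where replicate 1 was the highest young and the lowest senescent library and the groups overlapped. Its log2 fold change was 3.41 (SE 0.74, adjusted p = 0.00172) and 4.19 (SE 0.79, adjusted p = 0.000603). RSPO2 moved the other way, at -1.94 (SE 0.52, adjusted p = 0.00664) and -1.91 (SE 0.51, adjusted p = 0.00699), and so did the R-spondin receptor LGR5, at -2.16 (SE 0.36, adjusted p = 0.000181) and -1.89 (SE 0.37, adjusted p = 0.000627). RSPO4 and ZNRF3 were higher and LGR4 lower.

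Of 8 tested genes listed as targets of beta-catenin and TCF, 3 were higher in both comparisons and none lower, against 20.3% and 19.9% of all tested genes. The median log2 fold change of the list was -0.06 without and 0.04 with GDF11. CCND1, which encodes cyclin D1, was at 284 to 326 CPM in MmC-/GDF11- and at 1014 to 1586 CPM in MmC+/GDF11-, a log2 fold change of 2.06 (SE 0.15, adjusted p = 1.09e-07, edgeR) and 1.89 (SE 0.15, adjusted p = 2.19e-07) with GDF11. The nuclear receptor gene PPARD rose by 1.12 and 1.04, and the matricellular CCN4 by 1.08 and 0.89. AXIN2, described above as a target of the same pathway, fell in the same libraries.

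The remaining lists are given by their counts, to be read against the 22.9% higher and 22.4% lower among all tested genes without GDF11 and 23.4% and 23.3% with it. Of 14 tested genes of the Dishevelled and destruction complex list, 2 were higher and 3 lower without GDF11, and 3 and 3 with it, with CSNK1E higher (0.41 and 0.51) and DVL2 (-0.42 and -0.37) and DVL3 (-0.41 and -0.33) lower. Of 10 nuclear cofactors of beta-catenin, CTNNBIP1, an inhibitor of the beta-catenin and TCF interaction, and PYGO2 fell in both comparisons and none rose. Of 9 tested planar cell polarity genes, 1 was higher and 2 lower without GDF11, and 2 and 2 with it. The formin gene DAAM2 fell by 1.33 and 1.32, VANGL1 fell by 0.42 and 0.38, and CELSR1 rose by 1.08 and 0.94 at no more than 0.235 CPM. Of 4 tested further receptors and co-receptors, 3 were higher without and 2 with GDF11, with MUSK at 1.34 and 1.71 and LRP4 at 0.82 and 0.61. Among 3 tested further antagonists only FRZB was called, lower by 0.83 and 0.72, and none of the 7 further WNT ligands had enough counts for a test.

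**Figure D5:**
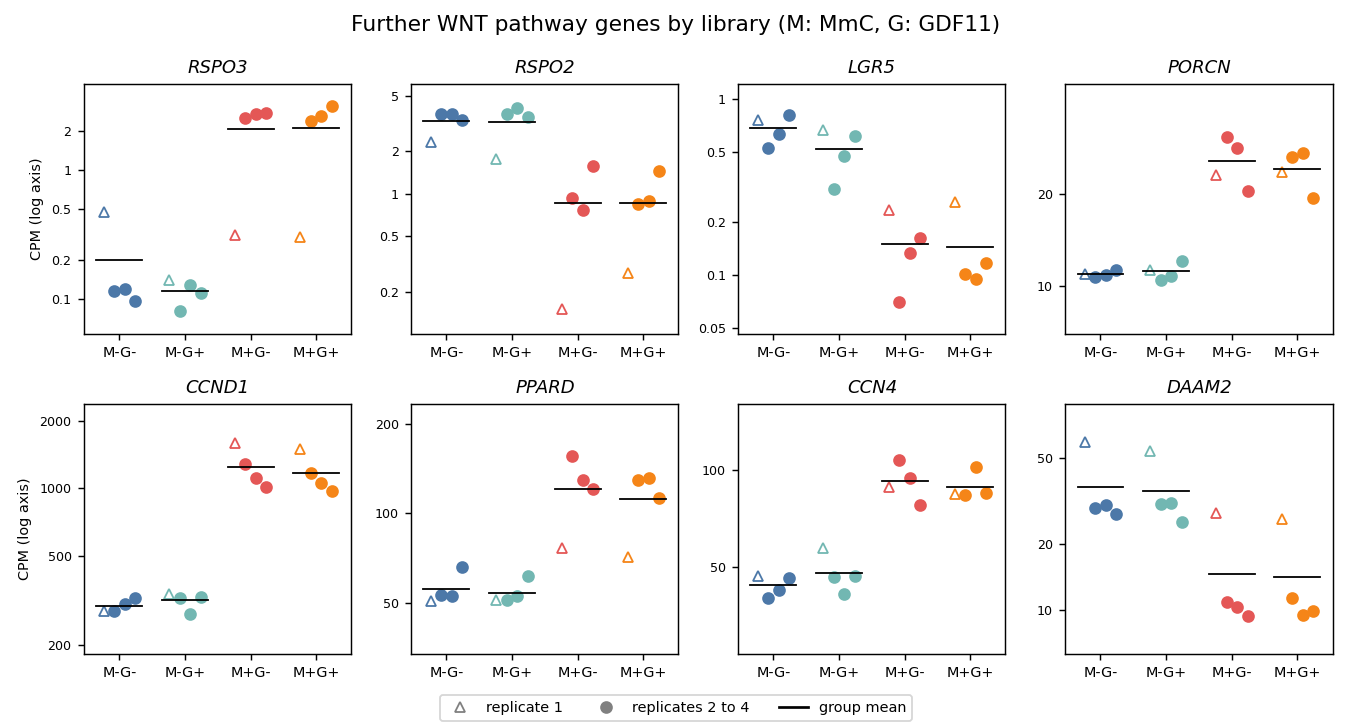
CPM on a log axis in each of the 16 libraries for 8 further WNT pathway genes; triangles are replicate 1, circles replicates 2 to 4 and lines group means (M, MmC; G, GDF11). CCND1 lies at 284 to 326 CPM in MmC-/GDF11- and at 1014 to 1586 CPM in MmC+/GDF11-, and replicate 1 of RSPO3 stays at 0.314 and 0.301 CPM in the MmC+ groups.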

How the data were processed

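RNA from 16 libraries of ASC52telo MSCs, 4 per group, was analysed from the raw counts per gene that the authors deposited. Per the labels and the methods of the study, poly(A) RNA was made into directional libraries, and reads were aligned to hg38 with HISAT2 2.2.1 and counted on GENCODE V38 genes with featureCounts 2.0.1. The strand setting and how multi-mapping reads were handled are not given in the sources used here. Both can change the counts of overlapping or duplicated genes. Symbols, positions and overlaps came from GENCODE v44 on hg38 (186 identifiers had no match), and the share of exons on 261 alternate contigs was measured with words of 31 bases.

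Counts were tested in R 4.3.3 with edgeR 4.0.16: filterByExpr (minimum count 10, minimum total 15), TMM scaling, and a robust quasi-likelihood fit of 1 mean per group to all 16 libraries, with adjustment over 19103 genes at 0.05. The steps were tested on simulated data. Alternatives were RLE and upper-quartile scaling, other filters, only the compared libraries, replicate number as a block, replicate number 1 left out of every group, limma-voom (limma 3.58.1), DESeq2 1.42.0, and each library left out in turn. The WNT genes and lists were chosen with earlier results of these data known. Values in every library are given for genes called in both MmC comparisons with a log2 fold change of at least 1 in either, and for LEF1, TCF7 and CTNNB1, and for each further list the 3 largest changes called in both are named. SFRP4, WNT4, FZD4 and the markers are described in more detail after their values were seen. Intervals of count ratios are exact and cover counting error only. No library was a copy of another.

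The main fit paired no libraries in any comparison, and replicate number entered only as a block in an alternative. Whether same-numbered libraries could be read as paired was judged separately. The rule was that every pair's deviations from the group means correlated above 0.1 across genes. This held for MmC without GDF11 (0.113 to 0.368) and GDF11 in senescent MSCs (0.448 to 0.818). It did not hold for MmC with GDF11 (lowest 0.0293) or GDF11 in young MSCs (lowest 0.0982). Where the rule held, the main calls made no use of the pairing that it allowed. Under the block, MmC without GDF11 gained calls for WNT2B, WNT4, FZD1, LRP5, ROR1 and SFRP4 and lost that of SFRP1. In senescent MSCs the block changed no WNT call of GDF11.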

Additional observations from a re-analysis of the deposited data

Results flagged for a closer look

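In each group of 4 libraries, a tested WNT gene was picked out when its highest or lowest library was separated from the other 3 by a gap which, as a share of the group's range, exceeded Dixon's 95% critical value. This happened in 22 of 132 sets of gene and group, where independent normal values would give about 1 in 20. The sets share the same libraries and are not independent, and the share over all tested genes was not counted. Of the 22, 18 were libraries numbered 1.

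Replicate 1 was high for WNT2 in MmC-/GDF11- (93.7 CPM, others at most 34.4), MmC+/GDF11- (19.6, others at most 7.83) and MmC+/GDF11+ (21.2, others at most 7.69). SFRP4 was high in replicate 1 of all 4 groups, at 14.5, 10.5, 18.9 and 21.2 CPM. WNT2B was at 6.63 CPM in replicate 1 of MmC-/GDF11+ and 10.2 CPM in that of MmC+/GDF11-, and WNT4 was at 1.87 CPM and FZD1 at 218 CPM in that of MmC-/GDF11-. LRP5 stood out at 101 CPM in replicate 1 of MmC-/GDF11- and 137 CPM in that of MmC+/GDF11+. In replicate 1 of MmC-/GDF11+, WNT5A was high at 82.9 CPM, FZD3 at 0.0834 CPM and TCF7L1 at 35.5 CPM, and TCF7L1 was at 22.6 CPM in replicate 1 of MmC+/GDF11-. FZD8 was the case where replicate 1 was low, at 5.95 CPM in MmC+/GDF11+ against 20.5 to 22.2 CPM.

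Outside number 1, replicate 4 was high for FZD2 (71.4 CPM) and SFRP1 (1.60 CPM) in MmC-/GDF11+ and for DKK1 (341 CPM) in MmC+/GDF11+, and replicate 2 was low for FZD6 in MmC-/GDF11- (30.7 CPM).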

How the results depend on the processing

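In each MmC comparison, 13 of the 17 calls held in every alternative run that tested the gene and with every left-out library. The calls that did not were SFRP1, FZD4, FZD6 and TCF7 without GDF11, and SFRP1, FZD4, FZD5 and WNT9A with it. FZD3 could not be tested without the libraries numbered 1, with at least 10 counts in every library or with only the compared libraries. WNT11 could not be tested with at least 10 counts in every library either, and DESeq2 gave SFRP4 no adjusted p. With GDF11, 10 genes in place of 6 were called lower both with the replicate block and with number 1 left out. With the replicate block, 12 were higher and 10 lower without GDF11, and 14 were higher with it. Calls over all genes rose too, from 8655 to 11066 of 19103 without GDF11 and from 8926 to 11267 with it under the block, and to 10164 of 19338 with GDF11 without number 1. The block added WNT2B, WNT4, FZD1, LRP5, ROR1 and SFRP4 in both comparisons, and FZD6 and TCF7 with GDF11, and removed SFRP1. It changed no other call of MmC, and none of GDF11 or the interaction. The replicate numbers were not taken to pair the libraries of MmC with GDF11. Leaving out 1 library gave 7 to 10 higher and 6 to 8 lower without GDF11. With GDF11 it gave 7 to 10 higher and 6 to 7 lower, where 7 higher came without replicate 3 of MmC-/GDF11+ or replicate 4 of MmC+/GDF11+. Over all genes the same fits called 7602 to 8793 without and 7742 to 9030 with GDF11, of 19402 to 19516 tested. The fit of all libraries had called 8655 and 8926. Leaving out most single libraries ended the SFRP1 call, FZD4 lost its call in 5 and 6 of 8, and FZD5 in 7 of 8.

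No called gene changed sign. Of the uncalled, AXIN1 without GDF11 was at 0.0036 with upper-quartile scaling, 0.0139 with at least 10 counts in every library and 0.0134 without number 1. DKK3 with GDF11 was at 0.0015 with RLE, 0.021 with upper-quartile scaling, 0.0258 with at least 10 counts, 0.0013 with only the compared libraries and 0.0012 with DESeq2, and WNT5B was at -0.1196 and WNT16 at -0.0477 without number 1. With 1 library left out the ranges without GDF11 were -0.1009 to 0.0027 for RYK, -0.17 to 0.049 for TCF7L2, -0.0643 to 0.69 for WNT2B, -0.25 to 1.62 for SFRP4, -0.0738 to 0.0668 for AXIN1 and -0.0171 to 0.25 for LRP6. With GDF11 they were -0.0278 to 0.13 for AXIN1, -0.0741 to 0.33 for WNT5B, -0.0621 to 0.78 for WNT16, -0.011 to 0.0631 for RYK and -0.0485 to 0.0138 for DKK3. The cause was not tested. Few counts limit FZD3, WNT11, NOTUM and the untested genes.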
